A study of Mus musculus with 15 samples.

Results

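FXRα1 was set against GFP in primary mouse hepatocytes by taking the 3 arrays titled FXRα1 and the 3 arrays titled GFP, which are 6 of the 15 arrays of the series. Hepatocytes were isolated from male C57BL/6J mice by collagenase perfusion and a Percoll step, plated on collagen, and kept in medium with dexamethasone and insulin before an overnight exposure to adenovirus. The medium was then replaced by one without dexamethasone and insulin, and total RNA was taken 36 h after transduction. The FXRα1 group received an adenovirus carrying human FXRα1 together with GFP driven by a CMV promoter of its own, and the GFP group received one carrying GFP alone. Every group therefore carries virus and GFP, and differs by the human receptor. The remaining 9 arrays, 3 each, hold hepatocytes given human FXRα2, FXRα3 or FXRα4 with GFP in the same way. The labels name neither the age of the mice nor an FXR ligand added to the cells. Whether replicates are different animals, cultures or repeat wells is not stated either, so a p-value here reflects the scatter among arrays, which could be technical.

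FXR, encoded by Nr1h4, is a nuclear receptor for bile acids that binds DNA mostly as a heterodimer with RXR, classically at an inverted repeat of the hexamer AGGTCA spaced by 1 base. In liver it is known to switch on bile salt export at the canalicular membrane and to hold back bile acid synthesis through the corepressor SHP, encoded by Nr0b2. Its isoforms arise from alternative promoters and splicing. A short insert, MYTG, lies in FXRα1 and FXRα3 beside the DNA-binding domain, FXRα2 and FXRα4 are without it, FXRα1 and FXRα2 have the short N-terminus, and FXRα3 and FXRα4 have the long one.

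Each gene is represented by the probe set with the highest mean over all 15 arrays among those annotated with a single symbol, which gave 18820 genes from 35556 probe sets. Values are log2 signals, changes are FXRα1 minus GFP unless another isoform is named, and a gene is said to have risen or fallen where the adjusted p of the limma fit was below 0.05. Rankings of the largest or leading genes passed over predicted genes and small RNA genes, such as symbols starting with Gm or Mir or ending in Rik. The counts over all genes include them. Array medians over all 35556 probe sets lay between 4.92 and 5.01 over the series. Pearson's r over genes, which are not independent, was 0.9969 to 0.9977 among FXRα1 arrays, 0.9983 to 0.9984 among GFP arrays and 0.9939 to 0.9963 between the 2 groups. The mouse Nr1h4 probe set does not check the human transgene, and it read 7.03, 6.94 and 7.08 in the FXRα1 arrays, against 6.94, 6.94 and 7.03 in the GFP arrays (change 0.04 ± 0.07 SE, adjusted p = 0.812). Hepatocyte markers were bright, with a median level over the list of 11.4 in each FXRα1 array and 11.2 to 11.4 in the GFP arrays. Of 13 Kupffer cell and macrophage markers and 12 lymphocyte and neutrophil markers, 0 passed the limma test (1 and 0 at an unadjusted p below 0.05), and their summed linear signals overlapped between FXRα1 (586 to 694 and 157 to 163) and GFP (626 to 682 and 154 to 163). The 12 stellate and fibroblast markers summed to 297 to 310 with FXRα1 and 302 to 316 with GFP, and Ngfr was the single member that fell, by 0.37, a call lost without FXRα1 replicate 3 or GFP replicate 1 or 2 (adjusted p = 0.0799 to 0.224). The 13 sinusoidal endothelial markers summed to 395 to 424 with FXRα1 and 388 to 408 with GFP, and Stab1 was the single member that rose, by 0.56 ± 0.11 (SE, adjusted p = 0.000727).

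FXRα1 changed 2336 of 18820 genes, or 12.4%. More rose than fell: 1584 genes rose (8.42%) and 752 fell (4%). Most changes were small, with a median absolute log2 change of 0.356 among the genes called. A change of 2-fold or more with an adjusted p below 0.05 was seen for 83 rises (0.441%) and 15 falls (0.0797%), and 9 rises reached 4-fold (0.0478%). Levels of the 3 FXRα1 arrays and the 3 GFP arrays did not overlap for 4578 genes (24.3%). When genes were cut by level into 4 bins of 4705, 735 rose and 394 fell in the brightest bin, and 15 and 8 in the dimmest. List counts against GFP below are to be read beside 8.42% and 4%, shares that are not matched to the level of a list. The lists were chosen with earlier results of these data known, so genes already seen to change may lead or fill them. The balance of rises and falls depends on the scaling of the arrays. Rises were 67.8% of the calls as deposited and 57.3% after quantile normalization over all probe sets. They were 51.5% after centring each array on the 75th percentile of its 18820 kept genes. After centring on the median of those genes, not of all probe sets, they were 32.7% (median centring). Across all genes the middle change was 0.0035 as deposited and -0.10 after centring on the median, and changes under that scaling are to be read relative to this shift.

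**Figure D1:**
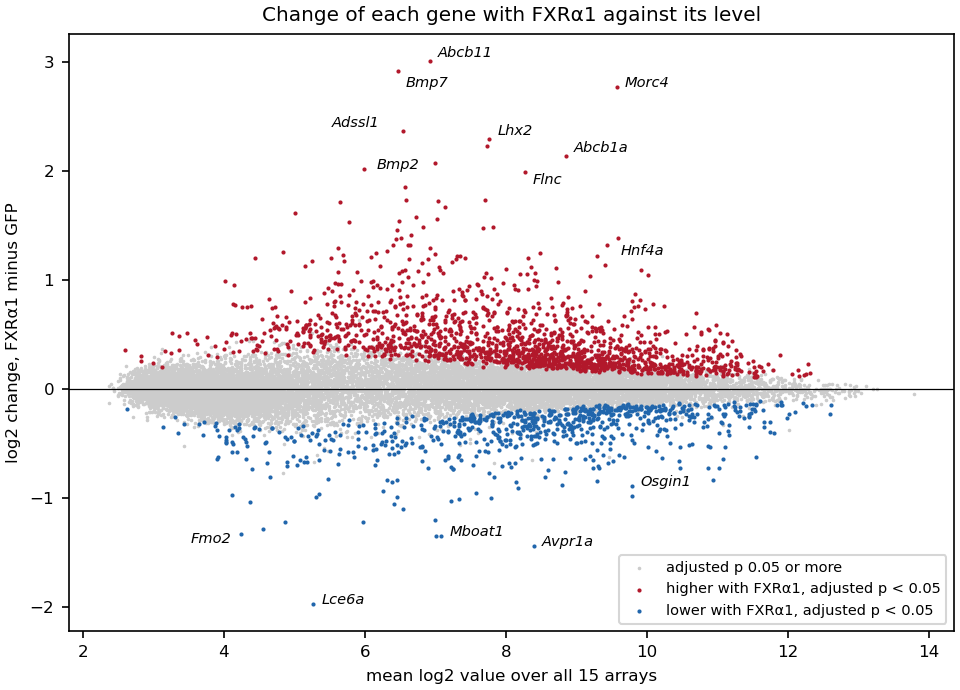
Log2 change, FXRα1 minus GFP (vertical axis), against the mean log2 value over all 15 arrays (horizontal axis) for 18820 genes; each point is a gene, with the 1584 that rose in red, the 752 that fell in blue and the others in grey. Among genes that are not predicted or small RNA genes, the largest rises, Abcb11, Bmp7 and Morc4, reach 3.01, 2.92 and 2.77, while the largest fall, Lce6a, is -1.97.

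Abcb11, the bile salt export pump of the canalicular membrane and a classical FXR target, had the largest rise. Its levels were 8.27, 7.88 and 8.39 in the FXRα1 arrays, against 5.27, 5.04 and 5.21 in the GFP arrays. The change was 3.01 ± 0.13 (SE, adjusted p = 3.5e-13), equal to 8.06-fold, and the groups did not overlap, which was a condition of the ranking. Abcb11 was the only gene among the 13 of the 20 largest rises with a promoter sequence in hand whose 250 bases upstream held a match with at most 2 mismatches to the 13 letters of the inverted repeat, AGGTCANTGACCT. The search covered both strands, and the motif is its own reverse complement. The 63 bases around it, from RefSeq (GRCm38.p6, minus strand, 5′ to 3′), are shown because they place the repeat beside the gene that moved most, with the match in capitals.

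Abcb11, chr2:69342642-69342704: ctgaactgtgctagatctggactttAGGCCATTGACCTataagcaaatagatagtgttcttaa

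Slco1b2, chr6:141629405-141629467: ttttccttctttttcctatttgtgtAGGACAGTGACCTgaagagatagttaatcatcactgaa

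The Slco1b2 sequence (plus strand) belongs to a sinusoidal uptake carrier on the FXR target list and is shown for contrast, since its repeat also has 1 mismatch while the gene did not pass the test (0.25 ± 0.14 SE, adjusted p = 0.312). Such a match was present before 17 of 1287 genes that rose (1.32%), 6 of 591 that fell (1.02%) and 171 of all 14739 genes with a sequence (1.16%). Within this window the repeat was about as frequent upstream of the genes that rose as upstream of all genes.

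Among the other large rises were signalling ligands, nucleotide and cytoskeletal genes and transcription factors. Bmp7, a bone morphogenetic protein known from kidney, read 7.85, 7.55 and 8.01 in the FXRα1 arrays, against 4.91, 4.97 and 4.75 in the GFP arrays. Its change was 2.92 ± 0.13 (SE, adjusted p = 6.56e-13), while a second, dimmer Bmp7 probe set moved by -0.08 (adjusted p = 0.667), so the 2 probe sets disagree. Morc4, a CW-type zinc finger protein of the MORC family, was the brightest of the large rises at 10.56, 10.63 and 10.61 in the FXRα1 arrays, against 7.89, 7.72 and 7.88 in the GFP arrays, a change of 2.77 ± 0.06 (SE, adjusted p = 6.54e-19). Lhx2, a LIM homeodomain transcription factor, read 8.25, 7.78 and 8.44 in the FXRα1 arrays, against 5.81, 5.80 and 5.98 in the GFP arrays. No FXRα1 array of these genes came within 1.5 log2 units of a GFP array. They were ranked by size of change among genes whose groups do not overlap, so this gap is no separate evidence. Itga7, the laminin-binding integrin α7, read 7.27, 6.90 and 7.04 in the FXRα1 arrays, against 5.65, 5.42 and 5.42 in the GFP arrays (change 1.57 ± 0.11 SE, adjusted p = 1.46e-09). Rragd, a Rag GTPase that carries amino acid signals to mTORC1 at the lysosome, read 6.71, 6.75 and 7.19 in the FXRα1 arrays, against 5.46, 5.12 and 5.44 in the GFP arrays (change 1.54 ± 0.16 SE, adjusted p = 3.78e-07). Sgk2, a serum and glucocorticoid-regulated kinase family member, read 7.14, 6.90 and 7.14 in the FXRα1 arrays, against 5.36, 5.29 and 5.35 in the GFP arrays (change 1.72 ± 0.10 SE, adjusted p = 4.59e-11). Flvcr2, a transporter of the major facilitator superfamily, rose by 1.85 ± 0.13 (SE, adjusted p = 7.08e-10), Cdr2l by 1.67 ± 0.12 (SE, adjusted p = 2.65e-09) and Fam83f by 1.61 ± 0.13 (SE, adjusted p = 7.79e-09). Lce1d and Serpinb9e rose by 1.72 and 1.56, but both belong to families of near-identical copies, so the gene that gave the signal is uncertain.

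The largest falls were smaller than the largest rises. Avpr1a, the vasopressin V1a receptor of hepatocytes, had the largest fall after Lce6a and read 8.35, 8.22 and 8.44 in the FXRα1 arrays, against 9.74, 9.78 and 9.81 in the GFP arrays (-1.44 ± 0.10 SE, adjusted p = 1.75e-09). Mboat1, a lysophospholipid acyltransferase, read 6.79, 6.87 and 7.03 in the FXRα1 arrays, against 8.29, 8.23 and 8.19 in the GFP arrays (-1.35 ± 0.11 SE, adjusted p = 2.07e-08). Serpina7, which encodes thyroxine-binding globulin, read 9.23, 9.33 and 9.23 in the FXRα1 arrays, against 10.40, 10.17 and 10.18 in the GFP arrays (-0.99 ± 0.13 SE, adjusted p = 7.02e-06). In each of these the FXRα1 arrays lay below all GFP arrays, which was a condition of the ranking. Fmo2, a flavin monooxygenase, changed by -1.34 ± 0.10 (SE, adjusted p = 2.29e-09), Ctsw, a cathepsin of cytotoxic lymphocytes, by -1.22 ± 0.11 (SE, adjusted p = 4.22e-08), Dhrs9, a short-chain dehydrogenase acting on retinol and steroids, by -0.99 ± 0.10 (SE, adjusted p = 4.54e-07) and Myof, a ferlin of the plasma membrane, by -0.95 ± 0.07 (SE, adjusted p = 4.77e-09). Atg10, an E2-like enzyme of autophagy, changed by -1.10 ± 0.10 (SE, adjusted p = 2.43e-08), while Map1lc3a, Atg2a and Atg2b of the same list rose by 0.46, 0.35 and 0.27. Of the 34 autophagy genes, 5 rose and 1 fell (4 and 3 under median centring), beside shares of 8.42% and 4% over all genes. The rises numbered 2 without FXRα1 replicate 3, 2 without GFP replicate 2 and 3 without GFP replicate 1. Tpbg, an oncofetal membrane glycoprotein, changed by -1.01 ± 0.11 (SE, adjusted p = 8.47e-07), while its dimmer probe set read -0.27 (adjusted p = 0.459). Prnd, which encodes the prion-like protein doppel, changed by -1.06 ± 0.10 (SE, adjusted p = 4.22e-08), and Xirp2, an actin-binding protein known from muscle, by -0.97 ± 0.14 (SE, adjusted p = 2.85e-05). Lce6a, with the largest fall of all, read 4.99, 5.06 and 5.06 in the FXRα1 arrays, against 6.97, 6.94 and 7.12 in the GFP arrays. It shares a family name with Lce1d, and whether its probe set reads other members was not tested.

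**Figure D2:**
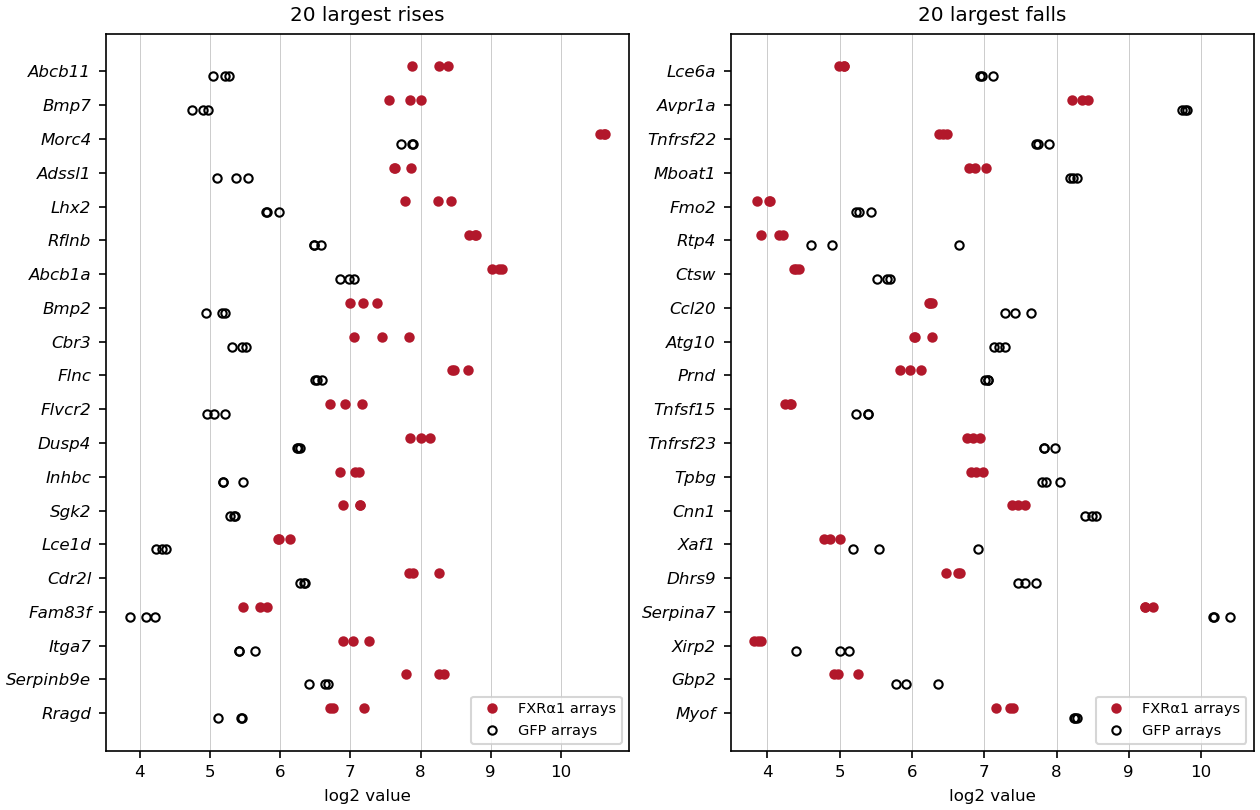
Log2 value of each FXRα1 array (red, filled) and each GFP array (black, open) for the 20 genes with the largest rises (left) and the 20 with the largest falls (right) among those whose groups do not overlap. Predicted genes and small RNA genes were passed over. Abcb11 lies between 7.88 and 8.39 with FXRα1 and between 5.04 and 5.27 with GFP, and for Rtp4 and Xaf1 1 GFP array stands above the other two.

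Of 29 measured FXR targets, 8 rose and 2 fell, and the median change over the list was 0.078, beside 0.0035 over all genes and rise and fall shares of 8.42% and 4%. The median turned to -0.027 under median centring. After Abcb11, the largest rises were those of Pdk4, Slc51b and Abcb4. Abcb4, which flips phosphatidylcholine into bile, rose by 0.65 ± 0.07 (SE, adjusted p = 3.03e-07). Abcc2, the conjugate export pump MRP2, rose by 0.52 ± 0.04 (SE, adjusted p = 6.55e-09), and Slc51b, the β subunit of the basolateral bile acid exporter OST, by 0.74 ± 0.15 (SE, adjusted p = 0.00151). Slc51a, the α subunit of that exporter, changed by -0.08 with an interval of -0.30 to 0.14 and did not pass the test. Pdk4, a kinase that shuts off pyruvate dehydrogenase, read 7.46, 7.30 and 7.48 in the FXRα1 arrays, against 6.29, 6.31 and 6.05 in the GFP arrays (change 1.2 ± 0.12 SE, adjusted p = 1.24e-07). Apoc2, the cofactor of lipoprotein lipase, rose by 0.54 ± 0.07 (SE, adjusted p = 4.36e-06). Scarb1, the HDL receptor, and Kng1, kininogen, rose by 0.24 and 0.20, and both lost the call under median centring. Scarb1 also lost it without FXRα1 replicate 3 (0.12, adjusted p = 0.237) or without any 1 of the GFP arrays (adjusted p = 0.0545 to 0.128).

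Osgin1 and Fgb went the other way. Osgin1, an oxidative stress-induced growth inhibitor described as an FXR target in human liver cells, read 9.92, 10.01 and 9.93 in the FXRα1 arrays, against 10.85, 10.83 and 10.87 in the GFP arrays. It fell by 0.89 ± 0.06 (SE, adjusted p = 2.15e-10). Fgb, the fibrinogen β chain, changed by -0.38 ± 0.07 (SE, adjusted p = 0.00037), while Fga and Fgg, the α and γ chains, changed by -0.12 and 0.03 (adjusted p = 0.457 and 0.918). Nr0b2, which encodes SHP, read 4.52, 4.86 and 4.54 in the FXRα1 arrays, against 4.75, 4.6 and 4.61 in the GFP arrays. Its groups overlapped, and the interval of the change was -0.28 to 0.24. The remaining targets did not pass the test: Baat (0.19) and Slc27a5 (0.18), which conjugate bile acids, Slc10a1 (0.08), Slco1b2, Vldlr (0.15), Ppara (0.13), Apoa1 (0.10), Apoc3 (0.05), Apoe (-0.02), Insig2 (0.07), Fgfr4 (0.04), Sdc1 (0.03), Fetub (-0.01), Nos2 (-0.15) and S1pr2 (-0.21). Slc27a5, Slco1b2 and S1pr2 passed it when GFP replicate 1 was left out (0.23, 0.43 and -0.30). S1pr2 also passed under each of the 3 other scalings (-0.25 to -0.32, adjusted p = 0.00619 to 0.0338), and Slc27a5 with the replicate number as a block or with dim genes left out (adjusted p = 0.0301 to 0.0395).

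Of 22 hepatobiliary transporters, 9 rose and 0 fell, with a median of 0.163 (10 and 4 at an unadjusted p below 0.05 in limma). Abcb1a, the multidrug efflux pump P-glycoprotein, read 9.16, 9.02 and 9.12 in the FXRα1 arrays, against 6.98, 6.85 and 7.05 in the GFP arrays (change 2.14 ± 0.07 SE, adjusted p = 7.49e-15), while its close paralog Abcb1b changed by 0.22 ± 0.06 (SE, adjusted p = 0.0233) and lost the call without FXRα1 replicate 1 or 3 or GFP replicate 2 or 3 (adjusted p = 0.0528 to 0.125). Atp8b1, the aminophospholipid flippase of the canalicular membrane, rose by 0.69 ± 0.09 (SE, adjusted p = 1.39e-05), and Atp7b, the copper exporter of hepatocytes, by 0.51 ± 0.10 (SE, adjusted p = 0.00129). Among the carriers that did not pass were the sterol exporters Abcg5 and Abcg8 (-0.31 and -0.37), the uptake carriers Slc22a7 (-0.29), Slco1a1 (0.08) and Slco1a4 (0.17), and the basolateral pump Abcc4 (-0.20). Under median centring 4 members fell, where 0 fell as deposited.

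Of the 16 genes of bile acid synthesis and conjugation, 3 rose and 0 fell by limma (4 and 0 unadjusted; 1 and 1 under median centring), and Cyp8b1 stood apart from the rest. Cyp8b1, the sterol 12α-hydroxylase that sets the share of cholic acid, read 6.41, 6.55 and 6.75 in the FXRα1 arrays, against 5.71, 5.59 and 5.67 in the GFP arrays (change 0.91 ± 0.11 SE, adjusted p = 2.76e-06). Cyp7a1, the rate-limiting enzyme of bile acid synthesis, read 3.08, 3.23 and 3.08 in the FXRα1 arrays, against 3.13, 3.28 and 3.23 in the GFP arrays. The change in Cyp7a1 was -0.08 with an interval of -0.25 to 0.08, and the groups overlapped. Its levels lie within the range of the dimmest bin (2.37 to 3.83), where 15 of 4705 genes rose and 8 fell. A fall in Cyp7a1 may therefore not have been detectable. Amacr (0.29) and Cyp2c70 (0.20), which makes muricholic acids in mice, rose as deposited and lost the call under median centring, and Amacr also in the fit lacking FXRα1 replicate 3 (0.20, adjusted p = 0.191) and in that lacking GFP replicate 1 (0.21, adjusted p = 0.184).

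**Figure D3:**
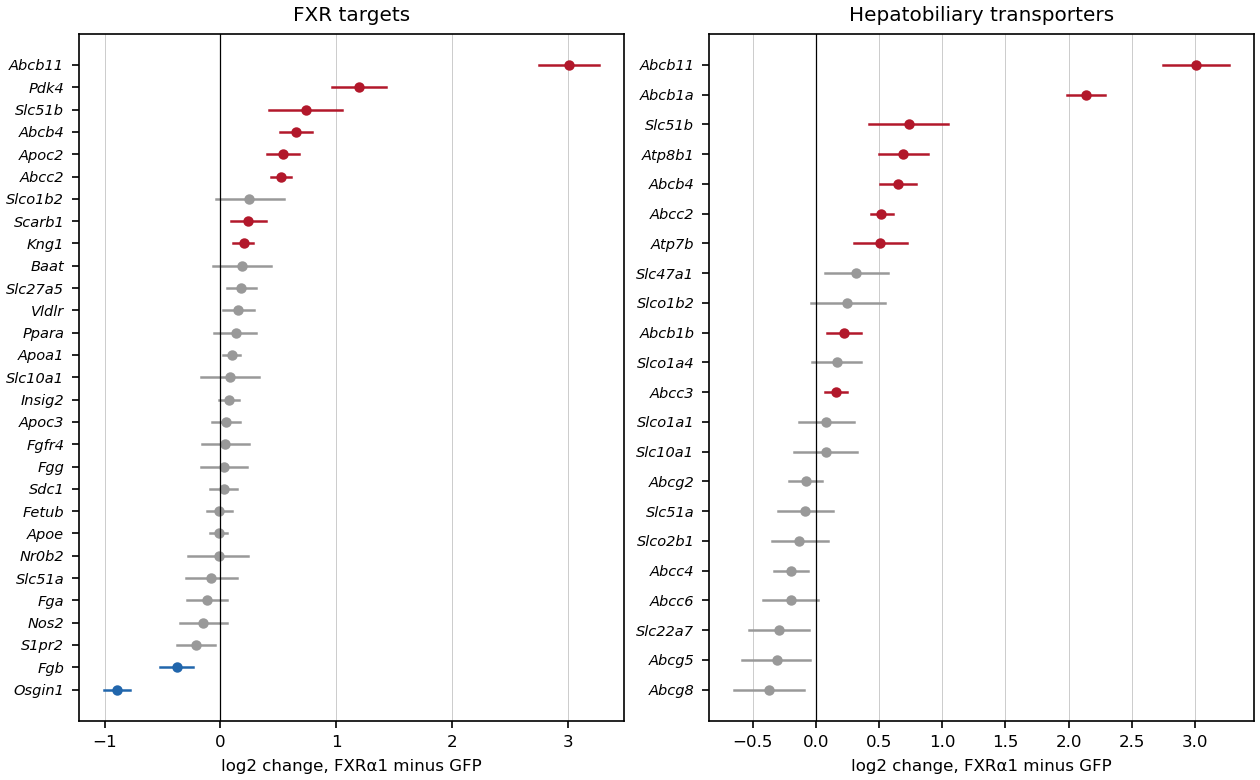
Log2 change, FXRα1 minus GFP, of the 29 measured FXR targets (left) and 22 hepatobiliary transporters (right), with points for the estimate and bars for its 95% interval; red rose, blue fell, grey did not pass the test. Abcb11 and Abcb1a, at 3.01 and 2.14, lie far to the right of the other members.

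Genes of the NRF2 program, which protects against electrophiles and supplies glutathione, included 13 of 33 that rose and 2 that fell, with a median of 0.093, which became -0.012 under median centring, where 7 members fell. Cbr3, a carbonyl reductase, read 7.45, 7.06 and 7.84 in the FXRα1 arrays, against 5.32, 5.46 and 5.52 in the GFP arrays (change 2.01 ± 0.19 SE, adjusted p = 1.21e-07), while its paralog Cbr1 changed by 0.10 (adjusted p = 0.356). Nqo1, a quinone reductase, read 7.90, 8.05 and 8.27 in the FXRα1 arrays, against 6.97, 6.99 and 6.97 in the GFP arrays (change 1.1 ± 0.07 SE, adjusted p = 7.08e-10). Gsta4, a glutathione transferase for lipid aldehydes, rose by 0.94 ± 0.07 (SE, adjusted p = 5.27e-09) and Hmox1, heme oxygenase, by 0.67 ± 0.11 (SE, adjusted p = 0.000113). Srxn1, Slc7a11 and Txnrd1, for sulfiredoxin, the cystine carrier and thioredoxin reductase, rose by 0.55, 0.45 and 0.37. Gstm4 rose by 0.76, against 0.09, -0.02, 0.09 and -0.01 for Gstm1, Gstm2, Gstm3 and Gstm6, which did not pass, although probes for this family can read more than 1 gene. Osgin1, also on this list, fell.

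BMP ligands moved in both directions. BMPs act through serine/threonine kinase receptors and SMADs, and the Id genes are among their immediate targets. Of 34 BMP pathway genes, 6 rose and 2 fell (6 and 5 under median centring), with a median of 0.00878, close to that of all genes and below 0 under 3 other scalings (-0.019 to -0.096). Bmp2 read 7.18, 6.99 and 7.38 in the FXRα1 arrays, against 5.22, 5.18 and 4.94 in the GFP arrays (change 2.07 ± 0.11 SE, adjusted p = 2.17e-11). Bmp6, the ligand that controls hepcidin in liver, read 8.94, 8.81 and 8.91 in the FXRα1 arrays, against 9.81, 9.75 and 9.74 in the GFP arrays (change -0.88 ± 0.07 SE, adjusted p = 4.34e-09). Id2, Id1 and Id3 rose by 0.67, 0.40 and 0.40, and Atoh8, a helix-loop-helix factor that BMP induces in liver, by 0.44. The type II receptor Bmpr2 changed by -0.37 ± 0.06 (SE, adjusted p = 4.45e-05). Hamp, which encodes hepcidin, changed by -0.05 (interval -0.50 to 0.41), and Smad6 and Smad7, the inhibitory SMADs, by 0.07 and -0.09, all 3 without passing the test.

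Of 32 TGF-β, activin and matrix genes, 5 rose and 10 fell (median -0.062). Inhbc, the activin C subunit made in liver, read 7.07, 6.85 and 7.13 in the FXRα1 arrays, against 5.19, 5.47 and 5.19 in the GFP arrays (change 1.73 ± 0.10 SE, adjusted p = 4.6e-11). Inhba, the activin A subunit, changed by -0.63 ± 0.05 (SE, adjusted p = 4.13e-09), while Inhbb and Inhbe changed by 0.14 and 0.09 and did not pass. Tgfb1 changed by -0.56 ± 0.07 (SE, adjusted p = 5.91e-06), and Ccn2, Thbs1, Skil and Mmp9 by -0.63, -0.60, -0.50 and -0.53. The basement membrane collagens Col4a1 and Col4a2, which share a promoter region, rose by 0.79 and 0.70, and the laminin chain gene Lama5 by 0.57. The TGF-β coreceptor gene Tgfbr3 rose by 0.54. Timp2 and Timp3, inhibitors of metalloproteinases, fell by 0.44 and 0.43. Timp2 lost the call without GFP replicate 3 (-0.38, adjusted p = 0.0614), and Timp3 without FXRα1 replicate 1 or 2 or GFP replicate 2 or 3 (adjusted p = 0.0665 to 0.136).

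Among actin-binding genes a filamin and its partner had the largest rises, while calponin 1 had the largest fall. This list was chosen with earlier results of these data known and holds the filamins and refilins by name. Their lead in it is therefore not a separate result. Of 35 measured, 4 rose and 12 fell (median -0.089). The falls numbered 8 without GFP replicate 2 and 14 under median centring. Flnc, the muscle filamin, read 8.67, 8.45 and 8.48 in the FXRα1 arrays, against 6.60, 6.53 and 6.50 in the GFP arrays (change 1.99 ± 0.08 SE, adjusted p = 3.5e-13), and Rflnb, refilin B, which binds filamins, read 8.79, 8.69 and 8.77 in the FXRα1 arrays, against 6.48, 6.48 and 6.59 in the GFP arrays (change 2.23 ± 0.09 SE, adjusted p = 2.69e-13). Flna, the widespread filamin, changed by -0.23 ± 0.05 (SE, adjusted p = 0.00261). Calponins Cnn1 and Cnn2 changed by -1.0 and -0.30, moesin (Msn) by -0.53, palladin (Palld) by -0.46 and the myosin light chain Myl9 by -0.47, each a fall. Ezr, the ezrin gene of the same family as moesin, rose by 0.50 ± 0.10 (SE, adjusted p = 0.00118). Actg1, a cytoplasmic actin, changed by -0.09 and did not pass the test.

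Of 25 purine genes, 13 rose and 0 fell by limma (13 and 2 unadjusted), with a median of 0.195. Under median centring 9 rose and 2 fell, and without FXRα1 replicate 3 9 rose and 0 fell. Adssl1, the muscle-type adenylosuccinate synthase of the purine nucleotide cycle, read 7.86, 7.63 and 7.62 in the FXRα1 arrays, against 5.54, 5.38 and 5.10 in the GFP arrays (change 2.37 ± 0.12 SE, adjusted p = 8.65e-12), against 0.21 ± 0.04 (SE, adjusted p = 0.00238) for the widespread form Adss, which lost the call under median centring. On the degradation side, Uox, urate oxidase, read 8.86, 8.79 and 9.0 in the FXRα1 arrays, against 8.19, 7.68 and 8.03 in the GFP arrays (change 0.92 ± 0.12 SE, adjusted p = 1.24e-05), and Xdh and Ada, for xanthine dehydrogenase and adenosine deaminase, rose by 0.56 and 0.57. Impdh1 and Gmps, which lead to GMP, rose by 0.47 and 0.39, and Nt5e, the ecto-nucleotidase CD73, by 0.53.

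Glucose metabolism had 9 of 27 genes rising and 1 falling, with a median of 0.181. Under median centring 6 rose and 2 fell, and 7 rose without FXRα1 replicate 3 and 13 without FXRα1 replicate 2. Gckr, the regulatory protein that holds glucokinase in the nucleus, rose by 0.90 ± 0.09 (SE, adjusted p = 9.58e-08), and Pcx, pyruvate carboxylase, by 0.33 ± 0.06 (SE, adjusted p = 0.000201). The pyruvate kinases moved apart: Pklr, the liver form, read 10.83, 10.77 and 10.91 in the FXRα1 arrays, against 11.51, 11.58 and 11.58 in the GFP arrays (-0.72 ± 0.06 SE, adjusted p = 2.66e-08), while Pkm, the other form, read 10.43, 10.26 and 10.69 in the FXRα1 arrays, against 9.66, 9.66 and 9.85 in the GFP arrays (0.74 ± 0.12 SE, adjusted p = 8.38e-05). A second Pkm probe set rose by 0.39 (adjusted p = 0.0164). Pck1, phosphoenolpyruvate carboxykinase, changed by -0.08 (interval -0.34 to 0.18). G6pc, glucose-6-phosphatase, changed by 0.63 (interval 0.05 to 1.22, adjusted p = 0.177) and did not pass.

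Lipid genes that rose or fell were scattered over several pathways. Of 27 genes of fatty acid and triglyceride synthesis 7 rose and 1 fell, but 3 rose without FXRα1 replicate 1, 4 without FXRα1 replicate 3, and 3 without GFP replicate 1. Under median centring 1 rose and 5 fell. Elovl3, an elongase of very long chains, read 6.46, 6.05 and 6.54 in the FXRα1 arrays, against 4.86, 4.38 and 5.2 in the GFP arrays (change 1.53 ± 0.18 SE, adjusted p = 1.55e-06), and Gpam, the mitochondrial glycerol-3-phosphate acyltransferase, changed by -0.38 ± 0.05 (SE, adjusted p = 4.24e-06). Dgat2 and Agpat2, acyltransferases of triglyceride synthesis, rose by 0.24 and 0.20 and lost the call under median centring. Fasn (-0.03) and Srebf1 (-0.08) did not pass. In phospholipid synthesis Pcyt2 and Pcyt1a, the CTP-dependent enzymes that lead to phosphatidylethanolamine and phosphatidylcholine, rose by 0.83 and 0.43, and Mboat7, a lysophosphatidylinositol acyltransferase, rose by 0.63 where Mboat1 fell. Of 22 cholesterol synthesis and uptake genes 0 rose and 5 fell by limma (1 and 9 unadjusted, median -0.0938), among them Fdps, Fdft1 and Sc5d at -0.38, -0.34 and -0.22, and Insig1, which retains SREBP in the endoplasmic reticulum, at -0.28. Of 25 genes of lipolysis and lipid droplets 6 rose and 1 fell, with Ces1g and Cideb at 0.58 and 0.52, Abhd5, the activator of adipose triglyceride lipase, at 0.24, and Plin2, the main droplet coat protein of hepatocytes, at -0.23. In fatty acid oxidation 3 of 28 rose and 4 fell, beside shares of 8.42% and 4% over all genes. Cpt1a, the carnitine palmitoyltransferase of the outer membrane, changed by 0.26 and Crat, Etfdh and Acat1 by -0.51, -0.37 and -0.34. Apolipoprotein and lipoprotein genes rose in 12 of 24 cases and fell in 0 by limma (15 and 0 unadjusted), with Saa4 (0.62), Lrp1 (0.51) and Apobec1 (0.36) besides Apoc2. That count was 5 without FXRα1 replicate 3, 6 without GFP replicate 2, 7 without FXRα1 replicate 1 or GFP replicate 3, and 5 under median centring. Under median centring 3 lipolysis genes rose and 3 fell, and 11 cholesterol and 8 fatty acid oxidation genes fell.

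Amino acid catabolism and urea cycle genes rose in 13 of 40 cases and fell in 3 (8 rose without FXRα1 replicate 3 and 6 under median centring, and 1 fell without FXRα1 replicate 1 or GFP replicate 1). Hgd, homogentisate dioxygenase of tyrosine breakdown, read 6.58, 6.17 and 6.67 in the FXRα1 arrays, against 5.59, 5.35 and 5.24 in the GFP arrays (change 1.08 ± 0.13 SE, adjusted p = 1.91e-06). Tat, tyrosine aminotransferase, which starts the same pathway, changed by -0.65 ± 0.07 (SE, adjusted p = 1.06e-06), and Hpd and Fah of that pathway by 0.12 and 0.09 without passing. Gpt and Prodh, alanine aminotransferase and proline dehydrogenase, rose by 0.63 and 0.47, and Cth, which makes cysteine from cystathionine, by 0.32. In drug metabolism 2 of 30 genes rose and 1 fell, near the shares over all genes (4 fell under median centring). Cyp1a1, the aryl hydrocarbon receptor target, rose by 0.77 ± 0.13 (SE, adjusted p = 0.000163), and Cyp2b10, the CAR target, changed by -0.27 ± 0.04 (SE, adjusted p = 0.000189).

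Of 18 hepatocyte transcription factors and identity genes, 3 rose and 1 fell (4 fell under median centring). Hnf4a, the nuclear receptor that maintains hepatocyte identity, read 10.18, 10.11 and 10.26 in the FXRα1 arrays, against 9.01, 9.10 and 9.16 in the GFP arrays (change 1.09 ± 0.05 SE, adjusted p = 3.2e-12). Prox1, a homeodomain factor, read 8.18, 7.99 and 8.30 in the FXRα1 arrays, against 7.30, 7.09 and 7.16 in the GFP arrays (change 0.97 ± 0.10 SE, adjusted p = 1.6e-07), and Foxa1 rose by 0.59 ± 0.07 (SE, adjusted p = 4.49e-06). Onecut2 was the member that fell (-0.17), a call lost without GFP replicate 3 (adjusted p = 0.0546). Cebpa (-0.06), Foxa2 (0.12), Foxa3 (-0.17) and Onecut1 (0.16) did not pass, and neither did Alb (0.03) or Ttr (0.04). Among 34 nuclear receptors 8 rose and 2 fell (5 rose without GFP replicate 2, and 7 fell under median centring), and the partner receptors differed: Rxrg rose by 0.68 ± 0.11 (SE, adjusted p = 0.000155), while Rxra and Rxrb changed by 0.17 and -0.06 and did not pass. Nr2f2, Nr2c1 and Nr6a1 rose by 0.50, 0.52 and 0.36, and Rora changed by -0.26. Of 27 hormone receptors of hepatocytes 1 rose and 3 fell (0 and 6 under median centring). Esr1, the estrogen receptor α, rose by 0.43, and besides Avpr1a the falls were Insr and Nr3c1, the insulin and glucocorticoid receptors (-0.17 and -0.19). Esr1 lost its call without FXRα1 or GFP replicate 2, and Insr without FXRα1 replicate 2 or GFP replicate 1 or 3 (adjusted p = 0.0574 to 0.126). Nr3c1 lost it without any 1 array other than GFP replicate 3 (adjusted p = 0.0576 to 0.278).

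Interferon-stimulated genes were lower with FXRα1 where they changed: of 29, 0 rose and 10 fell by limma (0 and 14 unadjusted), with a median of -0.295. The size of this difference depended on 1 GFP array. Rtp4, an interferon-induced chaperone of receptors, read 4.22, 3.91 and 4.16 in the FXRα1 arrays, against 6.65, 4.89 and 4.6 in the GFP arrays. Xaf1, an interferon-induced proapoptotic protein, read 5.01, 4.78 and 4.86 in the FXRα1 arrays, against 6.91, 5.54 and 5.18 in the GFP arrays. In both, GFP replicate 1 stood more than 1 log2 unit above the other GFP arrays. Without it 1 member rose and 4 fell, and the median was -0.14. Xaf1 then changed by -0.47 (adjusted p = 0.104), and Stat2 by -0.36 (adjusted p = 0.0585), against -0.60 with all arrays. Ifit1, Ifit3, Irf9 and Isg15 also lost the call without GFP replicate 1 (-0.26 to -0.33, adjusted p = 0.11 to 0.293). Rtp4 kept its call without that array but lost it when limma's variances were estimated robustly (adjusted p = 0.081). Gbp2, a guanylate-binding protein, read 4.98, 4.92 and 5.25 in the FXRα1 arrays, against 6.36, 5.91 and 5.78 in the GFP arrays (change -0.97 ± 0.15 SE, adjusted p = 8.27e-05) and kept its call without GFP replicate 1, as did Ifi35 and Ifih1 (-0.50 and -0.41 with all arrays).

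In the TNF family, 2 decoy receptors for TRAIL that lie side by side in the mouse genome and are close in sequence fell. Tnfrsf22 read 6.48, 6.37 and 6.43 in the FXRα1 arrays, against 7.74, 7.71 and 7.89 in the GFP arrays (change -1.35 ± 0.11 SE, adjusted p = 7.21e-09). Tnfrsf23 read 6.94, 6.76 and 6.85 in the FXRα1 arrays, against 7.83, 7.83 and 7.98 in the GFP arrays (change -1.03 ± 0.10 SE, adjusted p = 1.06e-07). The groups of both were apart, as the ranking of the largest falls required. The neighbouring Tnfrsf26 changed by -0.17 and did not pass. Of 28 receptors of the family 3 rose and 6 fell (3 fell without GFP replicate 2), including Tnfrsf14 at -0.51, while Relt and Tnfrsf1b rose by 0.52 and 0.37. Tnfsf15, the ligand TL1A, changed by -1.04 ± 0.11 (SE, adjusted p = 2.64e-07). Among 23 chemokines 2 rose and 3 fell (2 and 5 under median centring), beside shares of 8.42% and 4% over all genes. Cxcl2, a neutrophil attractant, read 7.94, 7.89 and 8.01 in the FXRα1 arrays, against 6.89, 6.98 and 6.78 in the GFP arrays, and Cxcl13, a B cell attractant, rose by 1.06 ± 0.10 (SE, adjusted p = 1.45e-07). Ccl20 and Ccl2 fell. Ccl20, an attractant of lymphocytes and dendritic cells, read 6.24, 6.25 and 6.27 in the FXRα1 arrays, against 7.43, 7.65 and 7.29 in the GFP arrays (change -1.20 ± 0.10 SE, adjusted p = 6.53e-09). Ccl2, an attractant of monocytes, read 9.75, 9.88 and 9.76 in the FXRα1 arrays, against 10.44, 10.53 and 10.39 in the GFP arrays (change -0.66 ± 0.06 SE, adjusted p = 1.27e-07). Acute phase genes were mixed, 6 of 26 rising and 4 falling (3 rose without FXRα1 replicate 3 or GFP replicate 3). Under median centring 3 rose and 8 fell, under 75th percentile centring 3 and 6, and after quantile normalization 6 and 6. Itih3 rose by 0.39, and Apcs, Steap4 and Socs2 changed by -0.65, -0.73 and -0.53. Of 34 complement and coagulation genes 4 rose and 3 fell (1 and 5 under median centring, and 2 rose without FXRα1 replicate 1 or 3 or GFP replicate 2). Over all genes 8.42% rose and 4% fell. Serpind1, heparin cofactor II, and C1s1, a protease of the C1 complex, changed by -0.72 and -0.45, and Serpinc1, antithrombin, rose by 0.27 as deposited.

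Regulators of ERK signalling included rises and falls. Dusp4, a nuclear phosphatase of MAP kinases, read 8.01, 7.85 and 8.13 in the FXRα1 arrays, against 6.24, 6.28 and 6.26 in the GFP arrays (change 1.73 ± 0.09 SE, adjusted p = 7.75e-12) and Dusp9, a cytoplasmic one, read 7.09, 7.02 and 7.33 in the FXRα1 arrays, against 5.89, 5.69 and 5.90 in the GFP arrays (change 1.32 ± 0.10 SE, adjusted p = 5.28e-09). Dusp1, Dusp8, Dusp16 and Ier3 fell (-0.25, -0.37, -0.35 and -0.31), as did Spred3 and Egr1 (-0.48 and -0.34). Egr1 lost the call without FXRα1 replicate 1 or 3 or GFP replicate 2 (adjusted p = 0.0645 to 0.101). Spred3 lost it without FXRα1 replicate 2 or 3 or GFP replicate 2 (adjusted p = 0.0749 to 0.159). Dusp6, Spry2 and Etv4, some of the common readouts of ERK activity, changed by -0.19, 0.25 and 0.04 and did not pass. Over the list, 4 of 25 rose and 6 fell, and 2 rose without FXRα1 replicate 1, GFP replicate 1 or GFP replicate 3. Under median centring 2 rose and 11 fell, and under each of the other 2 scalings 2 rose and 8 fell. Of 35 cell cycle genes, 0 rose and 2 fell by limma (2 and 6 at an unadjusted p below 0.05), beside 8.42% and 4% of all genes. Falls numbered 7 under median centring and 5 under each of the other 2 scalings. The 2 falls as deposited were Ccnd1 and Ccnd2 (D-type cyclins, -0.27 and -0.34), and Ccnd1 lost the call without FXRα1 replicate 1 or 2 or GFP replicate 1 or 3 (adjusted p = 0.113 to 0.181). Of 20 p53 response genes 0 rose and 3 fell by limma (1 and 5 unadjusted), with 7 falls under median centring and 5 under 75th percentile centring. The 3 were Plk2, Perp and Phlda3 (-0.23, -0.23 and -0.13), and Phlda3 lost the call without any 1 array other than FXRα1 replicate 3 (adjusted p = 0.0556 to 0.177). Cdkn1a and Mdm2 changed by 0.08 and 0.08. Of 28 genes of ER stress and the amino acid response 7 rose and 2 fell, and under median centring 6 rose and 6 fell, with Dnajb9 and Atf3 at 0.53 and 0.44, Herpud1 at -0.49, and Hspa5, the chaperone BiP, at -0.07 without passing.

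Epithelial and biliary genes included a few rises. Krt19, a keratin of bile duct cells, read 10.66, 10.73 and 10.70 in the FXRα1 arrays, against 9.26, 9.44 and 9.42 in the GFP arrays (change 1.32 ± 0.09 SE, adjusted p = 7.67e-10). Epcam, an adhesion molecule of the same cells, read 5.71, 5.70 and 5.69 in the FXRα1 arrays, against 5.05, 4.91 and 5.10 in the GFP arrays (change 0.68 ± 0.10 SE, adjusted p = 2.9e-05), and Sox9, a biliary transcription factor, rose by 0.45 ± 0.07 (SE, adjusted p = 4.44e-05). These were 3 of the 8 cholangiocyte markers, of which 0 fell, and the markers summed to 2130 to 2220 in linear signal with FXRα1 and 1050 to 1150 with GFP, mostly from Krt19. Krt7, Cftr, Pkhd1, Tspan8 and Anxa13 changed by -0.03, -0.03, -0.07, 0.07 and 0.15 and did not pass. In bulk RNA, more cells of a type and more RNA per cell cannot be told apart, and the part of these markers in the other changes was not tested. Of 28 keratins, claudins and cadherins 6 rose and 5 fell (3 fell without FXRα1 replicate 1 and 2 without GFP replicate 2). Gjb2, connexin 26, rose by 0.78 ± 0.05 (SE, adjusted p = 5.63e-10) and its second probe set by 0.86, while Gjb1, connexin 32, changed by -0.07. Krt8 and Krt18, the keratins of hepatocytes, changed by -0.02 and 0.04, and Cldn3 and Cdh17 fell (-0.51 and -0.55).

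**Figure D4:**
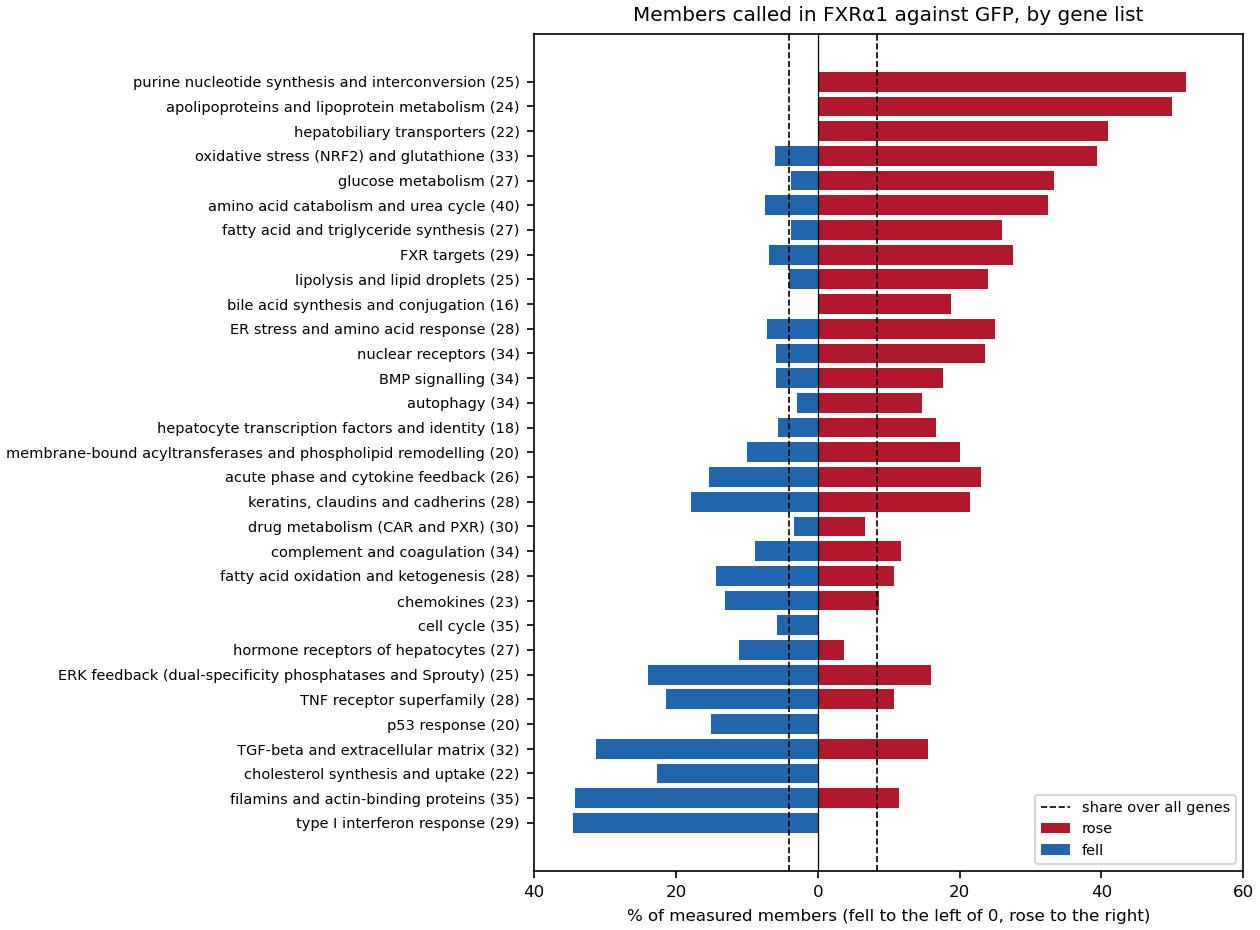
Share of the measured members of each of 31 gene lists that rose (red, to the right of 0) or fell (blue, to the left) in FXRα1 against GFP, in percent, with the number measured in brackets; dashed lines give the shares over all genes, 8.42% and 4%. Purine genes have 13 of 25 rising, and interferon-stimulated genes have 10 of 29 falling and 0 rising. The dashed lines are not matched by level: of the 4705 genes in the brightest bin, 735 rose and 394 fell.

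The isoforms most like FXRα1 differ from it by one feature each. Against FXRα3, which has the insert and the long N-terminus, 1291 genes differed (6.86%). FXRα1 was higher for 875 genes (4.65%) and lower for 416 (2.21%), and 19 differed by 2-fold or more (0.101%). Against FXRα2, which has the short N-terminus and no insert, 5882 differed (31.3%). FXRα1 was higher for 3225 (17.1%) and lower for 2657 (14.1%), and 434 differed by 2-fold or more (2.31%). The 1291 genes differing from FXRα3 became 863 without FXRα1 replicate 1, 1926 without FXRα1 replicate 2, 831 and 780 without FXRα3 replicate 1 and 2, and 910 to 999 without either remaining array. The share of higher genes was 67.8% of those differing from FXRα3, against 41.4% to 54.3% under the 3 other scalings, and 54.8% of those differing from FXRα2, against 46.7% to 77.2%. The labels give no measure of receptor protein per group, so the amount of each isoform and its form cannot be told apart.

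Genes that FXRα1 changed against GFP and that lay furthest above FXRα3 were Abcb11, Bmp7, Nppb, Flvcr2 and Sgk2. Abcb11 averaged 8.18 ± 0.27 with FXRα1, 8.53 ± 0.17 with FXRα2, 5.66 ± 0.25 with FXRα3, 7.05 ± 0.03 with FXRα4 and 5.17 ± 0.12 with GFP (SD, n = 3 each). It was higher with FXRα1 than with FXRα3 by 2.52 ± 0.13 (SE, adjusted p = 2.96e-11) and differed from FXRα2 by -0.35 ± 0.13 (SE, adjusted p = 0.0371). Abcb11 thus stood highest with the 2 short isoforms, and FXRα3 was 0.49 above GFP (adjusted p = 0.00928). Nppb, brain natriuretic peptide, averaged 7.71 ± 0.15 with FXRα1, 6.74 ± 0.05 with FXRα2, 6.16 ± 0.25 with FXRα3, 6.19 ± 0.15 with FXRα4 and 6.39 ± 0.11 with GFP (SD, n = 3 each). Its difference from FXRα3 was 1.55 ± 0.11 (SE, adjusted p = 9.86e-09), and from FXRα2 0.97 ± 0.11 (SE, adjusted p = 5.79e-07). Flvcr2 and Sgk2 were above FXRα3 by 1.51 ± 0.13 (SE, adjusted p = 5.85e-08) and 1.51 ± 0.10 (SE, adjusted p = 9.83e-10), and below FXRα2 by 1.41 and 2.49. Furthest below FXRα3 lay Cxcl2 (-1.15 ± 0.09 SE, adjusted p = 1.32e-08), Ccl2 (-0.96 ± 0.06 SE, adjusted p = 1.64e-09), Lce1d (-0.91), Elovl4 (-0.80) and Podxl (-0.76). By list, 11 of 34 nuclear receptors and 11 of 40 amino acid genes were higher with FXRα1 than with FXRα3, and 0 and 2 were lower. Over all genes, 4.65% were higher with FXRα1 than with FXRα3 and 2.21% were lower. The nuclear receptor count was 7 to 12, and 0 lower, when single arrays were left out (7 without FXRα1 replicate 3 or FXRα3 replicate 1 or 2) and 8 or 9 under other scalings. Of 35 cell cycle genes 12 were lower and 0 were higher, and the falls numbered 16 or 17 under other scalings, 8 without FXRα1 replicate 1 and 6 without FXRα3 replicate 3. Cdk1, the mitotic kinase, differed from FXRα3 by -0.68 ± 0.08 (SE, adjusted p = 6.09e-06), Ccne1, cyclin E1, by -0.38 ± 0.08 (SE, adjusted p = 0.00259) and Pcna, the replication clamp, by -0.20 ± 0.04 (SE, adjusted p = 0.00253), while their changes against GFP were -0.12, 0.02 and 0.02. Among the receptors, Nr1i2, the xenobiotic receptor PXR, was above FXRα3 by 0.93 ± 0.11 (SE, adjusted p = 8.98e-06) and Hnf4a by 0.42 ± 0.05 (SE, adjusted p = 1.42e-05). Nr0b2 was above FXRα3 by 0.44 ± 0.13 (SE, adjusted p = 0.034), with -0.46 for FXRα3 against GFP.

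Among genes changed against GFP, differences from FXRα2 reached a larger size than those from FXRα3. Krt19 averaged 10.70 ± 0.04 with FXRα1, 7.55 ± 0.10 with FXRα2, 11.13 ± 0.09 with FXRα3, 8.44 ± 0.27 with FXRα4 and 9.37 ± 0.10 with GFP (SD, n = 3 each), so that it was above FXRα2 by 3.15 ± 0.09 (SE, adjusted p = 2.82e-16) and below FXRα3 by 0.43. Cbr3 was above FXRα2 by 2.40 ± 0.19 (SE, adjusted p = 2.07e-09) and differed from FXRα3 by 0.30 (interval -0.10 to 0.70). Sema3e, a semaphorin guidance ligand, averaged 7.76 ± 0.12 with FXRα1, 5.38 ± 0.18 with FXRα2, 7.64 ± 0.09 with FXRα3, 5.80 ± 0.18 with FXRα4 and 7.08 ± 0.07 with GFP (SD, n = 3 each). Nexmif and Slc5a5, the sodium iodide symporter, lay above FXRα2 by 1.92 ± 0.15 (SE, adjusted p = 1.02e-09) and 1.91 ± 0.11 (SE, adjusted p = 1.37e-11), although both were lower with FXRα1 than with GFP, by 0.67 and 0.68. Epcam averaged 5.70 ± 0.01 with FXRα1, 9.97 ± 0.19 with FXRα2, 5.76 ± 0.18 with FXRα3, 9.70 ± 0.08 with FXRα4 and 5.02 ± 0.10 with GFP (SD, n = 3 each). It was lower with FXRα1 than with FXRα2 by 4.27 ± 0.10 (SE, adjusted p = 6.01e-18). Likewise below FXRα2 were Zic2 (-3.59 ± 0.13 SE, adjusted p = 1.19e-14), a zinc finger factor of neural development, Cidec (-3.36 ± 0.10 SE, adjusted p = 2.82e-16), a lipid droplet protein, Eomes (-3.16 ± 0.14 SE, adjusted p = 2.67e-13), a T-box factor, and Il17d (-2.93 ± 0.12 SE, adjusted p = 2.6e-14), a cytokine. The rises of Zic2 and Cidec against GFP (0.50 and 0.37) were lost when single arrays were left out, Zic2 without FXRα1 or GFP replicate 3 (adjusted p = 0.0865 and 0.0584) and Cidec without FXRα1 replicate 1 or GFP replicate 1 or 2 (adjusted p = 0.0586 to 0.0683). By list, 15 of 29 FXR targets were lower with FXRα1 than with FXRα2 and 2 were higher, while 13 of 33 NRF2 genes and 13 of 25 purine genes were higher and 3 and 5 were lower. Over all genes, 17.1% were higher with FXRα1 than with FXRα2 and 14.1% were lower. The 15 lower FXR targets were 7 under median centring, and 12 to 14 without single arrays.

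Some genes were set apart from every other group. With an adjusted p below 0.05 in the same direction against GFP, FXRα2, FXRα3 and FXRα4, 130 genes lay highest with FXRα1 (0.691%) and 35 lay lowest (0.186%). Against FXRα4 alone, 6030 genes differed (32%). These 4 comparisons share the FXRα1 arrays, and the counts were 270 and 55 without FXRα1 replicate 2 and 76 and 38 without FXRα1 replicate 3. The low count was 20 without FXRα1 replicate 1, 23 and 19 without FXRα3 replicate 1 and 2, and 21 without GFP replicate 2. Ranked by the smallest of the 4 differences, the leading high genes were Acsm5, Nppb, Ripor2, Adm, Ggct, Rflnb, Snai1, Uox, Slc22a4 and Bmp7. Acsm5, a mitochondrial acyl-CoA synthetase of medium chains, read 6.10, 5.79 and 6.47 in the FXRα1 arrays, against 5.04, 4.86 and 5.08 in the GFP arrays. It averaged 5.12 ± 0.33, 4.84 ± 0.12 and 4.69 ± 0.11 with FXRα2, FXRα3 and FXRα4 (SD, n = 3 each), so the other isoforms lay near the GFP arrays. Ripor2, an inhibitor of RhoA, averaged 7.15 ± 0.08 with FXRα1, 6.27 ± 0.05 with FXRα2, 6.33 ± 0.03 with FXRα3, 5.95 ± 0.05 with FXRα4 and 5.89 ± 0.03 with GFP (SD, n = 3 each). Adm, adrenomedullin, averaged 7.67 ± 0.35 with FXRα1, 6.99 ± 0.12 with FXRα2, 6.96 ± 0.11 with FXRα3, 6.64 ± 0.22 with FXRα4 and 6.38 ± 0.11 with GFP (SD, n = 3 each). Rflnb and Bmp7 rose with each isoform against the shared GFP arrays and were highest with FXRα1, Rflnb averaging 8.75, 8.08, 7.89, 7.39 and 6.52 in the order FXRα1 to FXRα4 and GFP. Uox went in different directions, with FXRα3 and FXRα4 below GFP by 0.53 and 1.32. Snai1, a repressor of epithelial genes, was above FXRα3 by 0.85 ± 0.11 (SE, adjusted p = 2.28e-05), Ggct, a γ-glutamyl cyclotransferase, by 0.67 and Slc22a4, an ergothioneine carrier, by 0.72.

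The leading low genes were Ccl2, Tgfb1, Plpp3, Tmeff1, Pqlc3, Tnnt2, Ccl20, Tuba1a, S100a6 and Stom. Ccl2 averaged 9.79 ± 0.08 with FXRα1, 10.52 ± 0.03 with FXRα2, 10.76 ± 0.16 with FXRα3, 10.76 ± 0.09 with FXRα4 and 10.46 ± 0.07 with GFP (SD, n = 3 each). Tgfb1 averaged 8.58 ± 0.07 with FXRα1, 9.92 ± 0.16 with FXRα2, 9.16 ± 0.04 with FXRα3, 9.69 ± 0.12 with FXRα4 and 9.14 ± 0.07 with GFP (SD, n = 3 each). Tgfb1 thus lay lowest with FXRα1 and above GFP with FXRα2 and FXRα4, whose GFP differences were 0.79 and 0.56. Plpp3, a lipid phosphate phosphatase that degrades lysophosphatidic acid, was below FXRα2, FXRα3, FXRα4 and GFP by 0.91, 0.51, 0.89 and 0.62. Tnnt2, cardiac troponin T, and Tmeff1 had the least secure falls against GFP (-0.38 and -0.47). Tnnt2 lost the call without FXRα1 replicate 3 or GFP replicate 2 (adjusted p = 0.134 and 0.104), and Tmeff1 without GFP replicate 3 (adjusted p = 0.0573).

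**Figure D5:**
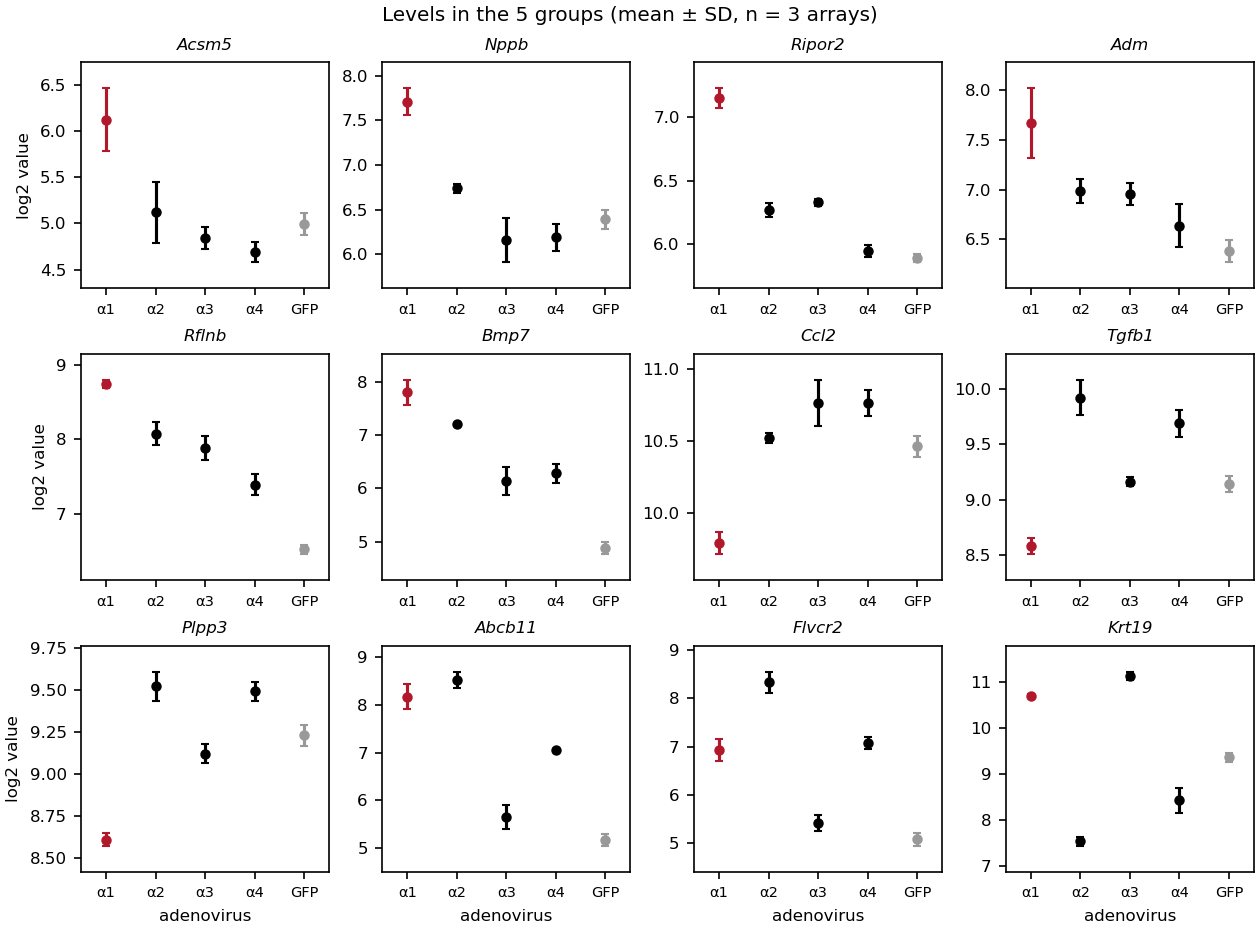
Mean log2 value in each of the 5 groups (error bars, SD of 3 arrays; FXRα1 in red, GFP in grey) for 6 genes highest with FXRα1, 3 genes lowest with it (Ccl2, Tgfb1, Plpp3), and Abcb11, Flvcr2 and Krt19, which are among the genes changed against GFP with the largest differences from FXRα3 or FXRα2. Vertical axes differ between panels and do not start at 0; Acsm5 averages 6.12 with FXRα1, against 4.69 to 5.12 in the other groups.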

How the data were processed

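Total RNA was measured on Affymetrix mouse whole-transcript arrays. The authors deposited normalized values per probe set, taken here as log2 from their range, since no label names the log base; Affymetrix Expression Console 1.1 and PLIER are named in the submitters' processing notes, and normalization is otherwise not given in the sources used here. No filter on dim genes was applied to the 18820 genes. With limma 3.58.1 (R 4.3.3), 5 group means were fitted to all 15 arrays with a mean-variance trend, and two-sided p-values were adjusted by Benjamini-Hochberg over all genes of a comparison. On simulated data 100% of changes of 1 log2 unit and 80% to 84% of changes of 0.5 were recovered in FXRα1 against GFP, with 7.14% of calls false. That simulation changed 50 genes per size and direction among 18820, with independent noise, so its rates need not hold for the measured arrays. The number of arrays limits the precision. Promoters and their coordinates are RefSeq's (GRCm38.p6).

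The members and gene lists were chosen with earlier results of these data known. The text names all FXR targets, the 20 largest rises and falls with no overlap of groups, up to 4 called members per list by adjusted p with relatives, the 5 largest differences each way from FXRα2 and FXRα3 among genes called against GFP, and 10 genes each way set apart from every group. Predicted genes and small RNA genes were passed over in these rankings. Further list members were chosen after their values were seen. Same-numbered replicates of FXRα1 and GFP did not deviate together (r = -0.0823, 0.0988 and 0.0602), and no pairing was used. The other groups were not part of this check. A block on the replicate number gave more calls against GFP, 3072 where 2336 were called without it. Alternatives changed the variance model, array weights, arrays fitted, dim-gene filter, scaling, probe set choice, offset, fold minimum and replicates.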

Additional observations from a re-analysis of the deposited data

How the results depend on the processing

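All 290 genes called among 311 followed against GFP kept their direction under 19 alternatives, and 50 also kept the call under each of them; each of the others lost it under the fold minimum. Between FXRα1 and GFP, the 752 falls numbered 1143 after quantile normalization, 1262 after 75th percentile centring and 2070 after median centring, which also left 1005 rises. Adding 16 to the linear values left 59 genes changed by 2-fold. A fold minimum of 1.5 in limma left 109 calls (91 rises and 18 falls), 538 against FXRα2, 18 against FXRα3, 616 against FXRα4, and 0 genes above and 0 below every other group. Array weights gave 2046 genes against FXRα3 and 203 above every group. The genes below every group numbered 23 without the variance trend, 15 with the arrays of 2 groups fitted alone, 63 after quantile normalization, 61 after median centring and 79 after 75th percentile centring. The comparison with FXRα4 and the sets apart from every group were chosen after seeing the data.

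With the replicate number as a block, 3072 genes were called against GFP, 2117 against FXRα3, 237 above and 63 below every group. What the shared numbers stand for is not stated. Leaving out 1 array gave 1749 to 2789 calls against GFP, 780 to 1926 against FXRα3, 76 to 270 above and 19 to 55 below every group. Dim genes carried few calls, so a change there may not have been detectable.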
